A study of Mus musculus with 4 samples.

Results

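A set of 10 genes encoding ubiquitin ligases linked to muscle atrophy was followed in mouse primary myotubes given ectodysplasin A2 (EDA-A2). They are Trim63 (MuRF1), Trim32, Fbxo32 (atrogin-1), Fbxo30, Fbxo21, Fbxo31, Fbxo40, Asb2, Klhl38 and Cblb. They were taken by name from the 53647 genes of the count tables, and all 10 were found there. EDA-A2 is the ligand of EDA2R, a member of the tumour necrosis factor receptor superfamily, and the experiment asks how activating this receptor alters gene expression in muscle cells. Wild-type (WT) myoblasts came from the limb muscles of pups aged 2 to 3 days and were turned into myotubes in low horse serum. In the EDA-A2 condition (2 libraries), myotubes were exposed to EDA-A2 at 250 ng/ml for 24 h, and the Control condition (2 libraries) is labelled with the same 24 h. All cells were collected 72 h after the start of differentiation, a time that includes the 24 h of treatment. The paper's methods describe sample sizes in general as counts of biological replicates. What the controls received in place of EDA-A2, and whether a replicate of these libraries is a culture or a pup, is not given in the sources used here. The p-values measure the spread between these libraries, and the error of each gene borrows from that of all genes tested.

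A ubiquitin ligase, or E3, joins ubiquitin to a protein and so marks it for the proteasome. MuRF1 and atrogin-1 are the best known ligases of muscle loss: their transcripts rise in fasting, denervation, unloading and cachexia, and mice that lack either lose less muscle when denervated. MuRF1 is a RING ligase that acts on thick filament proteins, whereas atrogin-1 is an F-box protein that brings its targets to a complex built on Skp1 and the cullin Cul1.

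Of the 10 genes, 9 passed the filter on low counts, and Trim63 and Fbxo32 rose after EDA-A2. Trim63 was 1.77-fold higher (95% interval 1.59 to 1.98) and Fbxo32 was 1.57-fold higher (1.40 to 1.76). None of the 9 fell, and the other 7 passed the threshold in neither direction. Over all 15173 genes tested, 2.45% were called higher and 2.13% lower by the quasi-likelihood test of edgeR, at a p-value under 0.05 after Benjamini-Hochberg adjustment. The count of members called lower was 0 by DESeq2 as well, and with all 4 libraries no member was lower at an unadjusted p under 0.05 by either tool. Without Control replicate 1, 2 members (Fbxo21 and Asb2) were lower at that level by edgeR, with adjusted p-values of 0.309 and 0.296.

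The depth of the libraries was close to equal, at 29444155 to 29746863 counts on genes, with scaling factors between 0.972 and 1.03. Of the read pairs, 12.2 to 13.0% were assigned to no gene. A count of 0 allows up to 3 counts, or 0.101 to 0.102 CPM (counts scaled to library size), which covers counting error only. Fitted log2 fold changes had a median standard error of 0.10. Values are given below as normalized counts, which are counts scaled to the mean adjusted library size, and errors are SD over 2 libraries unless another error is named.

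Because Trim63 had the largest change of the tested members, the 250 bases before its start are shown, from RefSeq's promoter windows on the GRCm38.p6 build (chr4:134314870-134315119, plus strand). Capitals mark matches to the core motif of steroid receptors, ACANNNTGT, and to that of forkhead factors, GTAAACA, which is read here on the opposite strand. Both were searched on both strands, and the matches do not overlap.
Trim63: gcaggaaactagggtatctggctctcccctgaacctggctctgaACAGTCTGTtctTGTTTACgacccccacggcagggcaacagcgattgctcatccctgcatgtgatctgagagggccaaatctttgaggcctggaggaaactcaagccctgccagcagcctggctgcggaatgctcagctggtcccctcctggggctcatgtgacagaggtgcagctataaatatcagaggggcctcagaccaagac
The steroid receptor match lies 206 to 198 bases before the start and the forkhead match 194 to 188 bases before it. FOXO factors and the glucocorticoid receptor are known activators of Trim63. The forkhead core was found in 3.17% and the steroid receptor core in 5.84% of 32851 mouse windows of the same length. Windows were at hand for 8 of the 10 genes, 10 windows in all, and Fbxo32 and Klhl38 had none. Of these 10 windows, only that of Trim63 held either motif. A match to the NF-kB motif, which 7.25% of all windows hold, was found in 1 window, that of Fbxo21. The E-box CANNTG, the motif of MyoD and myogenin, was in 6 of the 10 windows, beside 66.2% of all windows. These letters are a description of the windows and do not show binding.

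Trim63 (ENSMUSG00000028834) lies on the plus strand of chromosome 4 from 134042393 to 134056948 in the GRCm39 build. It had 2014 and 2070.2 normalized counts in Control replicates 1 and 2, and 3449 and 3794.5 in EDA-A2 replicates 1 and 2. Both EDA-A2 libraries lay well above both controls, and the gap between the conditions was wider than that between the replicates of either. The mean was 2042 ± 39.6 in Control and 3622 ± 244 after EDA-A2. On the log2 scale the change was 0.83 with a standard error of 0.07, and edgeR gave an adjusted p of 7.62e-06. Among the 371 genes called higher, Trim63 stood 114th by fold change, and by p-value it stood 25th of all genes tested.

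Trim32 encodes another RING ligase of the TRIM family, which acts on desmin and on thin filament proteins. Its gene (ENSMUSG00000051675, chromosome 4 from 65523201 to 65537781, plus strand) lies inside the span of Astn2 without overlapping its exons. Trim32 had 1427 and 1552 normalized counts in the controls and 1393 and 1429.9 after EDA-A2, so the conditions overlapped. The log2 fold change was -0.08 (95% interval -0.24 to 0.09), with an adjusted p of 0.723 by edgeR.

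The other TRIM ligases nearest to Trim63 were compared with it inside each library. Trim54 (MuRF3) and Trim55 (MuRF2) are its closest relatives in muscle, and both are bound to sarcomeres. Trim54 had 1573 ± 3.01 normalized counts in Control and 1333 ± 63.4 after EDA-A2, with a log2 fold change of -0.24 (adjusted p = 0.101 by edgeR). Trim55 had 7195 ± 637 and 6548 ± 15.7, with a log2 fold change of -0.14 (adjusted p = 0.416 by edgeR). Neither passed the threshold. The count of Trim63 was 29.9% and 27.1% of that of Trim55 in the controls and 52.8% and 57.8% after EDA-A2. Relative to Trim54, it was 1.28 and 1.32 times as large in the controls and 2.50 and 2.94 times after EDA-A2. Neither ratio overlapped between the conditions, but with 2 libraries against 2 an exact permutation test of a ratio cannot go below p = 0.333 (two-sided).

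**Figure D1:**
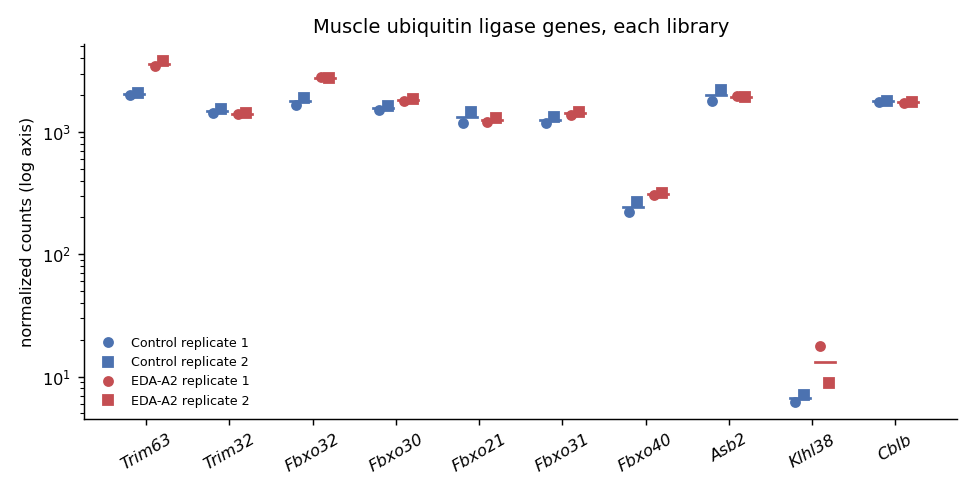
Normalized counts (log axis) of the 10 ligase genes, with 1 point per library (circles for replicate 1, squares for replicate 2, blue for Control, red for EDA-A2) and a line at the mean of each condition. Trim63 and Fbxo32 show red points well above the blue ones, while those of Trim32, Fbxo21, Asb2 and Cblb overlap, and Klhl38 lies near the floor with 6 to 18 counts.

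Fbxo32 (ENSMUSG00000022358, chromosome 15 from 58039275 to 58078741, minus strand) encodes atrogin-1, whose known targets include MyoD and the translation factor eIF3f. Its normalized counts were 1659.8 and 1885 in the controls and 2812 and 2747 after EDA-A2. The lower EDA-A2 library was far above the higher control. The mean was 1772 ± 159 in Control and 2779.5 ± 46.2 after EDA-A2. On the log2 scale the change was 0.65 with a standard error of 0.08, and the adjusted p was 0.000121 by edgeR. It stood 150th by fold change among the genes called higher and 68th of all genes by p-value.

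Among the F-box members, 3 others had both EDA-A2 libraries above both controls without passing the threshold. Over all genes tested, 22.8% showed both EDA-A2 libraries above both controls and 22.2% both below. Of the 9 members tested, 5 had both above, 0 had both below and 4 overlapped.

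Fbxo40 is a muscle-restricted F-box protein that acts on the insulin signalling adaptor IRS1. Its normalized counts were 222 and 266 in the controls and 306 and 314 after EDA-A2, the lowest level of the tested members. The log2 fold change was 0.35 (95% interval 0.07 to 0.63), with an adjusted p of 0.188 by edgeR. Its lower bound was above 0, as was that of Fbxo30. Fbxo40 (ENSMUSG00000047746) lies on chromosome 16 from 36783822 to 36810902, minus strand.

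Fbxo30 encodes MUSA1, a ligase of denervated muscle that BMP signalling holds down. It had 1515 and 1639 normalized counts in the controls and 1780 and 1846 after EDA-A2. The fold change was 1.15 (95% interval 1.03 to 1.28), with an adjusted p of 0.176 by edgeR. Fbxo30 (ENSMUSG00000047648) is on chromosome 10 from 11156770 to 11173806, plus strand.

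Fbxo31, an F-box protein best known from the cell cycle and DNA damage, had 1191 and 1317 normalized counts in the controls and 1365 and 1462 after EDA-A2. The 95% interval of its log2 fold change of 0.17 ran from -0.00 to 0.35, and the adjusted p was 0.329 by edgeR. Fbxo31 (ENSMUSG00000052934) is on chromosome 8 from 122276177 to 122305642, minus strand.

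Fbxo21 encodes SMART, an F-box protein needed for denervation atrophy. Its normalized counts were 1186 and 1451 in the controls and 1209.6 and 1287 after EDA-A2, where both EDA-A2 values fell between the controls. The log2 fold change was -0.08 (95% interval -0.28 to 0.12), with an adjusted p of 0.782 by edgeR. Without Control replicate 2 its sign turned, to 0.07. Fbxo21 (ENSMUSG00000032898) is on chromosome 5 from 118114795 to 118148269, plus strand.

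Asb2 carries a SOCS box and brings filamin B to a complex on the cullin Cul5. It had 1795 and 2199 normalized counts in the controls and 1951 and 1930.2 after EDA-A2. Here too the EDA-A2 libraries lay between the controls, which lay further apart in normalized counts than those of any other member. The log2 fold change was -0.04 (95% interval -0.23 to 0.15), with an adjusted p of 0.893 by edgeR. The sign of Asb2 turned under scaling to total counts, to 0.01, and it ranged from -0.18 to 0.11 with each library left out in turn. Asb2 (ENSMUSG00000021200) is on chromosome 12 from 103283687 to 103334012, minus strand.

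Cblb is a RING ligase that acts on IRS1 in unloaded muscle and restrains receptor signalling in immune cells. Its normalized counts were 1754 and 1795 in the controls and 1733 and 1764 after EDA-A2, and the 4 libraries spanned a narrower range than for any other tested member relative to its level. The fold change was 0.985 (95% interval 0.887 to 1.09), with an adjusted p of 0.938 by edgeR. Scaled to total counts, the log2 fold change was 0.03 in place of -0.02. Cblb (ENSMUSG00000022637) is on chromosome 16 from 51851588 to 52028729, plus strand.

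Klhl38, a BTB-kelch protein of the kind that serves the cullin Cul3, had 6 and 7 counts in the controls and 18 and 9 after EDA-A2. It did not pass the filter and was not tested. The ratio of its summed counts, EDA-A2 to Control, was 2.00 with an exact Poisson 95% interval of 0.997 to 4.22, which covers counting error only. With no filter, its log2 fold change was 0.98 with an adjusted p of 0.696 by edgeR. Klhl38 (ENSMUSG00000022357) lies on chromosome 15 from 58163791 to 58188150 on the minus strand. It lies 85.0 kb from Fbxo32 on the same strand, with no protein-coding gene between them. The antisense gene Gm15943 overlaps exons of Fbxo32 and of Klhl38 and had 2 to 8 counts. Gm62284, also antisense over exons of Klhl38, is absent from the count tables, so its reads are not known. The strand option of the counting is not given in the sources used here, so the few counts of Klhl38 cannot be told apart from reads of its antisense partners. For Fbxo32, and for Fbxo30 and Asb2, which also have antisense genes over their exons, these partners had at most 15 counts, far fewer than the members.

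**Figure D2:**
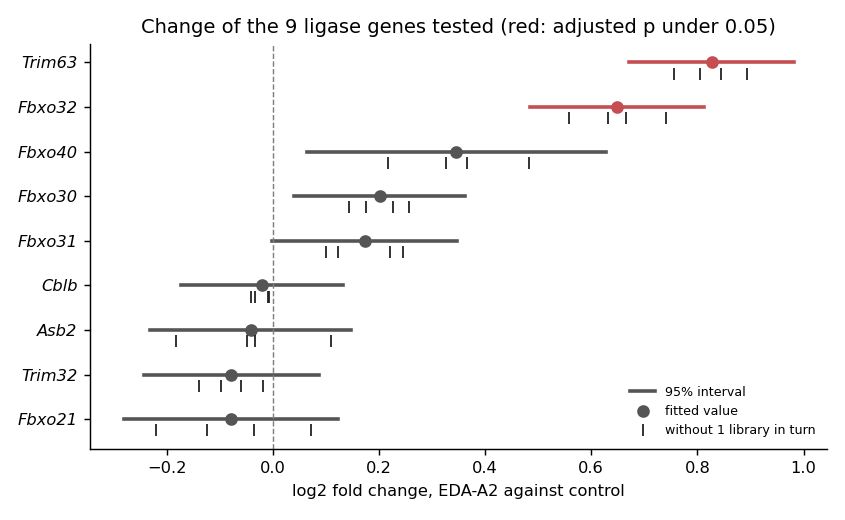
Log2 fold change of the 9 tested ligase genes (EDA-A2 against Control), with the fitted value as a point, its 95% interval as a line and the value with each library left out as black ticks, red where the adjusted p is under 0.05. Only Trim63 and Fbxo32 are red, with lower bounds of 0.67 and 0.49, and the ticks of Fbxo21 and Asb2 fall on both sides of 0.

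The 2 calls depend on having both controls. Without Control replicate 1, the log2 fold change of Trim63 was 0.80 and that of Fbxo32 0.56, each with an adjusted p of 0.148 by edgeR. Without Control replicate 2, they were 0.84 (adjusted p = 0.119 by edgeR) and 0.74 (adjusted p = 0.0999 by edgeR). In these fits only 7 and 9 of the 15173 genes were called at all. Both genes passed the threshold with either EDA-A2 library left out, and under all 9 other settings tried. For the 7 tested members that were not called, the 95% intervals together spanned 0.823-fold to 1.54-fold, so changes of the size of Trim63 lay outside them. Smaller changes lay inside some of these intervals.

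Control replicate 1 was below Control replicate 2 for all 10 members, whereas 50.1% of all genes tested showed that order. EDA-A2 replicate 1 was below replicate 2 for 7 of the 10, beside 51.75% of all genes tested. Both members that rose did so beyond this offset between the controls.

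Compared per length, Trim63 was the most abundant member in every library. Using the union of annotated exons, its level was 21.1 ± 0.409 RPKM (read counts scaled to gene length and library size) in Control and 37.5 ± 2.52 RPKM after EDA-A2. Fbxo32 had a level of 6.54 ± 0.587 RPKM in Control, with 4 members above it, and its range over the controls overlapped that of Trim32 just above it. After EDA-A2 it was 10.2 ± 0.170 RPKM, the next highest after Trim63, and lay clear of its neighbours. In Control, neighbouring levels also overlapped between Fbxo30 (7.93 RPKM) and Fbxo21 (7.76 RPKM), between Fbxo21 and Trim32 (6.95 RPKM), and between Cblb (4.73 RPKM) and Asb2 (4.55 RPKM). Fbxo31 stood between these groups at 5.35 ± 0.380 RPKM. Fbxo40 (1.27 ± 0.165 RPKM) and Klhl38 (0.0246 ± 0.00230 RPKM) were the lowest in both conditions. After EDA-A2, no neighbours in this order overlapped.

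The order depends on the transcript that is assumed. With the length of the canonical transcript, Trim63 was still highest, at 47.8 ± 0.926 RPKM in Control and 84.7 ± 5.71 RPKM after EDA-A2. Asb2, whose annotated exons span 14.8 kb but whose canonical transcript is 2.95 kb, then came next, at 22.9 ± 3.28 RPKM in Control and 22.2 ± 0.165 RPKM after EDA-A2. Fbxo32 moved from rank 7 in Control (8.11 ± 0.727 RPKM) to rank 3 after EDA-A2 (12.7 ± 0.211 RPKM). In Control its range overlapped those of Cblb just above it and Trim32 just below it, whereas after EDA-A2 it lay clear of its neighbours.

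**Figure D3:**
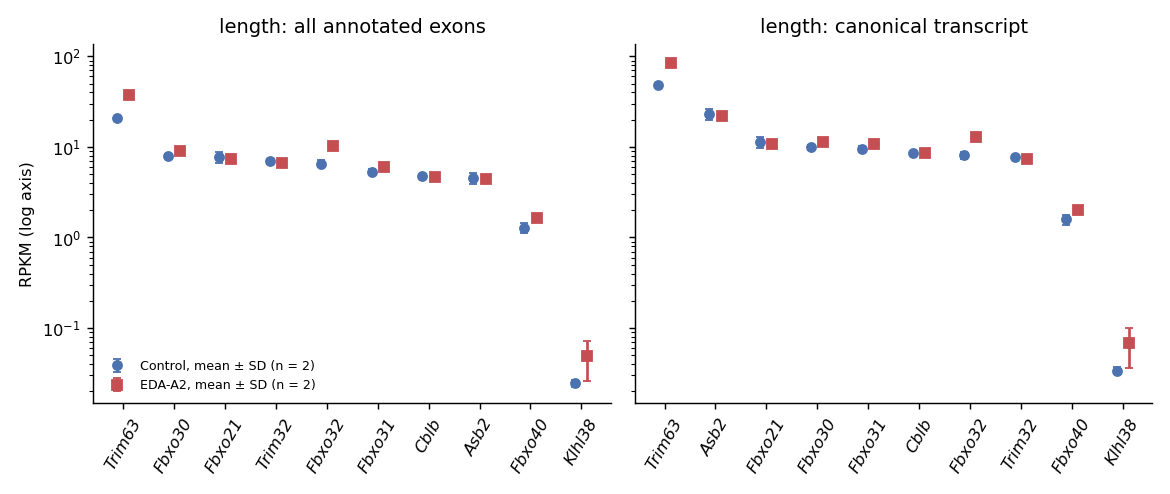
Level per length (RPKM, log axis) of the 10 ligase genes as mean ± SD of 2 libraries (blue circles Control, red squares EDA-A2), with the length taken from all annotated exons at left and from the canonical transcript at right. Trim63 is highest in both panels, Klhl38 lies below 0.1 RPKM, and Asb2 is the gene whose place shifts most between the panels.

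The rise of Trim63 and Fbxo32 also shifted the make-up of the group. The 10 genes together had 419 and 475 CPM of gene counts in the controls and 555 and 567 after EDA-A2. Trim63 and Fbxo32 made up 28.8% and 27.9% of the members' counts in the controls and 39.1% and 39.4% after EDA-A2. The summed counts of the other 8 members were 8827 and 10141 in the controls and 9952 and 10219 after EDA-A2, so the conditions overlapped. These shares follow from the calls above and are a description. The log2 ratio of Trim63 to Fbxo32 counts was 0.28 and 0.14 in the controls and 0.29 and 0.47 after EDA-A2, so the 2 conditions nearly touched and the change in this ratio was about as large as the gap between the EDA-A2 replicates.

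Genes around the ligases were taken from lists by role and read from the same test. The lists were made after earlier results of these data were known, so the calls counted in each are descriptive. Over all genes tested, the median log2 fold change was -0.00, with 371 called higher and 323 lower.

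Of 21 other muscle ubiquitin ligases tested, 0 rose and 2 fell, with a median log2 fold change of -0.05. Trim72 (MG53), a TRIM ligase that also helps to repair the muscle membrane, fell by 0.39 on the log2 scale, from 16350 ± 919.7 to 12470 ± 78.7 normalized counts (adjusted p = 0.00337 by edgeR). Klhl40, a kelch protein that stabilises thin filament proteins, fell by 0.38, from 2314 ± 194 to 1775 ± 13.0 (adjusted p = 0.00848 by edgeR). With no filter, neither was called, at adjusted p-values of 0.0860 and 0.160 by edgeR. Both calls were also lost with either control left out. Without Control replicate 1 the log2 fold changes were -0.45 for Trim72 and -0.30 for Klhl40, and without Control replicate 2 they were -0.34 and -0.47. The call of Klhl40 was lost without EDA-A2 replicate 1 as well.

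Of the 10 cullin ligase scaffolds and adaptors tested, none passed the threshold, and the median log2 fold change was -0.05. The partners of the F-box members were near 0, with log2 fold changes of 0.02 for Cul1 (95% interval -0.12 to 0.16) and -0.04 for Skp1 (-0.19 to 0.11). Cul5, the scaffold for Asb2, had 2185 ± 43.3 normalized counts in Control and 2550 ± 39.7 after EDA-A2 (log2 fold change 0.22, adjusted p = 0.0876 by edgeR), and it was called under scaling to total counts (adjusted p = 0.0363). Cul3, the scaffold for kelch proteins, had a log2 fold change of 0.13 (adjusted p = 0.385 by edgeR).

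The 16 ubiquitin, E1 and E2 genes, which supply and activate ubiquitin, held no call, and their median log2 fold change was -0.02.

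Among 16 tested regulators of ligase transcription, 3 rose and 0 fell, with a median log2 fold change of 0.02. Earlier results of these data were known when these genes were picked, so this count is a description and does not test regulators as a class. All 3 genes that rose belong to the noncanonical NF-kB pathway, whose part in the rise of Trim63 and Fbxo32 was not tested. Nfkb2, which encodes its p100 precursor, had a log2 fold change of 1.89 (adjusted p = 9.46e-10 by edgeR). Map3k14, the kinase NIK that starts this pathway, rose by 1.11 on the log2 scale, from 412 ± 36.5 to 892 ± 2.50 normalized counts (adjusted p = 7.39e-06 by edgeR). Relb, the partner of the processed p100, rose by 0.99, from 533 ± 17.5 to 1055 ± 126 (adjusted p = 3.1e-05 by edgeR). With either control left out, only 1 of the 3, Nfkb2, remained called. Rela, a subunit of canonical NF-kB from the same list, narrowly missed the threshold. Its log2 fold change was 0.30 (95% interval 0.12 to 0.47), with an adjusted p of 0.057 by edgeR. Rela was called under scaling to total counts (adjusted p = 0.0304 by edgeR) and with a replicate block (adjusted p = 0.0241 by edgeR). Foxo1, a forkhead activator of both Trim63 and Fbxo32, had 3739 ± 152 normalized counts in Control and 4146 ± 112 after EDA-A2. Its log2 fold change of 0.15 (95% interval 0.00 to 0.29) had an adjusted p of 0.302 by edgeR. For Foxo3 the log2 fold change was -0.04 (adjusted p = 0.865 by edgeR). Transcript levels do not measure the activity of FOXO proteins, which is set by phosphorylation. Klf15 and Dach2 did not pass the filter.

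Of 20 genes for proteins that the ligases target, 0 rose and 6 fell, and the median was -0.20 on the log2 scale. The 4 with the smallest p-values encode sarcomere proteins. Actn2, the Z-disc protein alpha-actinin 2, had a log2 fold change of -0.65 (adjusted p = 5.29e-05 by edgeR). Myh3, the embryonic myosin heavy chain, had a log2 fold change of -0.57 (adjusted p = 0.000198 by edgeR). Mylpf, a regulatory myosin light chain, fell by 0.48 on the log2 scale, from 129300 ± 5417 to 92410 ± 2623 normalized counts (adjusted p = 0.000943 by edgeR). Acta1, skeletal alpha-actin, fell by 0.52, from 180000 ± 8549 to 125700 ± 9408 (adjusted p = 0.00104 by edgeR). The other calls, Myl1 and Tnni2, had adjusted p-values of 0.0475 and 0.0484 by edgeR, and scaling to total counts left 4 genes of the list called. With no filter 3 were left, without Acta1 (adjusted p = 0.0596 by edgeR), and with either control left out there were 0. These are transcripts, so they do not show whether the ligases act on the proteins.

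Of 16 other genes known from muscle atrophy, 1 rose, with a median log2 fold change of 0.01. This was Eda2r, the receptor for EDA-A2, which rose by 0.35 on the log2 scale, from 7354 ± 468 to 9342 ± 861 normalized counts (adjusted p = 0.0178 by edgeR). Its log2 fold change was 0.28 without Control replicate 1 and 0.41 without Control replicate 2. It was 0.44 without EDA-A2 replicate 1 and 0.25 without EDA-A2 replicate 2. Of these fits, only that without EDA-A2 replicate 1 kept the call. With no filter it was not called, at an adjusted p of 0.261 by edgeR.

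**Figure D4:**
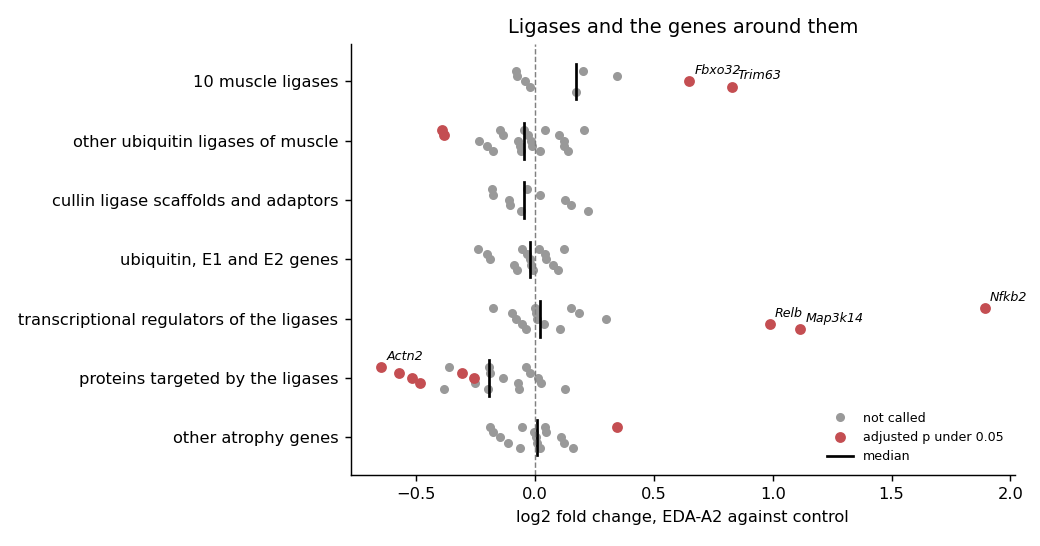
Log2 fold change (EDA-A2 against Control) of each tested gene, 1 point per gene, for the ligases (9 of 10 tested) and the 6 lists of genes around them, with calls in red and a black line at each median. The ligases show 2 calls above 0, the regulators 3 calls above 0, and the targeted proteins 6 calls below 0.

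The libraries were checked against markers of cell types. Of 10 myotube markers, all were detected and 3 fell (Myh3, Acta1 and Myh8) while 1 rose (Mymx, a fusion protein). Their summed level was 693100 to 726230 normalized counts in Control and 538530 to 538730 after EDA-A2. Over all genes the normalized counts summed to 29886000 to 30466000 in Control and 28861000 to 29234000 after EDA-A2. The total was thus also lower after EDA-A2, and the marker sums are to be read beside it. In bulk libraries, fewer cells of a type and less RNA per cell cannot be told apart. Of 5 myoblast markers tested, 1 fell (Cdh15), with summed levels of 7835 to 9099 in Control and 6965 to 7305 after EDA-A2. Of 6 fibroblast markers tested, 1 fell (Pdgfrb), and the sums were 51100 to 52976 and 48416 to 49249, with Lum and Thy1 at 0 in every library. Markers of smooth muscle (19876 to 23546 against 24071 to 25800.0) and of dividing cells (22727 to 26997 against 24925 to 25375) held no call. The smooth muscle sum was mostly Acta2 (15717 to 21210 normalized counts over the libraries) and Smtn (4140 to 4573). The other smooth muscle markers were near the floor, with 5 counts of Myh11 in every library and 5 to 16 of Cnn1. Macrophage markers summed to 88.6 to 103 in Control and 129 to 156 after EDA-A2, with no call among 3 tested and with Ptprc at 0 to 2 counts. Endothelial markers summed to 33.0 to 36.3 and 29.5 to 36.3 with Emcn at 0 and T cell markers to 8.24 to 12.1 and 1.96 to 4.91 with Cd4 and Cd8a at 0. Of the Schwann cell markers, Sox10 was at 0 in every library. The most abundant markers of these lists were Myh3, Cdh15, Col3a1, Acta2, Top2a, Cd68, Cdh5 and Cd3g. The part of these shifts in the rise of Trim63 and Fbxo32 was not tested.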

How the data were processed

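The authors sequenced polyadenylated RNA from stranded libraries of 4 myotube samples. Per the submitters' processing notes and the paper's methods, reads were checked (FastQC 0.11.9, MultiQC 1.12), trimmed (Trim Galore 0.6.5), mapped to GRCm39 (STAR 2.7.3a) and counted per gene (HTSeq 0.11.1). The annotation release, the strand option and the test for these libraries are not given in the sources used here. What the authors deposited is 1 table of raw, unscaled counts for each library, by Ensembl gene. Lines in which HTSeq sums its uncounted pairs entered neither the library sizes nor the tests.

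These counts were fitted by edgeR 4.0.16 under R 4.3.3 (TMM, glmQLFit and glmQLFTest) without any covariate beside condition. The 15173 genes kept by filterByExpr (count at least 10, total at least 15) were fitted together. The threshold was 0.05 after Benjamini-Hochberg adjustment. With 2 residual degrees of freedom per gene, the edgeR fit draws the error of each gene towards the trend over all genes tested. Dividing the log2 fold change by the root of F gave its standard error. The 95% intervals use the t distribution with the degrees of freedom of this shared estimate. Symbols and positions came from GENCODE on GRCm39, which matched 52610 of 53647 genes. RPKM divides CPM on the adjusted library size by annotated length, so it is not a deposited value. Alternatives were other scalings, other filters, DESeq2 1.42.0 (Wald test), robust estimation, protein-coding genes alone, a replicate block, and each library left out in turn. A fit without 1 library assumes that the lone library varies like the other condition. The fit was run on simulated data, for which the pass limits were revised after a limit on the share of changes recovered was missed.

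The members and all lists were chosen with earlier results of these data known. Named genes are all 10 members, every call of a list or the 4 with the smallest p-values where there were more than 4, and the partners Cul1, Skp1, Cul5, Cul3, Eda2r, Foxo1, Foxo3, Trim54 and Trim55 whatever their value. Of the markers, those at 0 and the most abundant of each list were named, except for an item that is not reported here. Outside this rule, Myl1, Tnni2, Klf15, Dach2, Ptprc, Smtn, Myh11, Cnn1 and the markers called were named after their values were seen. Replicates of a condition differed by more than counting error (chi-square per gene 9.95 for Control and 4.73 for EDA-A2). Repeated libraries of a single culture can also exceed counting error, so this does not show that the replicates are independent. Each library was treated as 1 sample.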

Additional observations from a re-analysis of the deposited data

Results flagged for a closer look

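Klhl38 stands outside the tests because its counts are too low. Both EDA-A2 libraries (18 and 9 counts) lay above both controls (6 and 7 counts), an order that 22.8% of all genes tested showed. The mean normalized count of Klhl38 was 6.62 ± 0.620 in Control and 13.2 ± 6.22 after EDA-A2, a ratio of 2. The exact Poisson 95% interval of 0.997 to 4.22 holds 1 and covers counting error only. With no filter, the adjusted p was 0.696 by edgeR. Most of the excess came from EDA-A2 replicate 1. The antisense gene Gm15943 over exons of Klhl38 had 2 and 8 counts in the controls and 6 and 3 after EDA-A2. For Gm62284, the other antisense gene over these exons, the count tables hold no entry.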

How the results depend on the processing

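Under 9 settings that kept all libraries, Trim63 (0.82 to 0.88 on the log2 scale) and Fbxo32 (0.64 to 0.70) stayed called, with adjusted p-values up to 0.0211 and 0.0498 by edgeR or DESeq2, and no other tested member was called. With each library left out in turn, Trim63 ranged from 0.76 to 0.89 and Fbxo32 from 0.56 to 0.74, and the number of members called higher from 0 to 2. The calls of Trim63 (0.80 and 0.84) and Fbxo32 (0.56 and 0.74) were lost without Control replicate 1 or 2. In those fits 7 or 9 genes were called higher and 0 lower, although 2258 and 2492 had an unadjusted p under 0.05 by edgeR. Over all 4 such fits the ranges were 7 to 223 higher and 0 to 193 lower. With no filter, 64 genes were higher and 22 lower among 25545 tested, and 74.4% of the calls were higher, beside 53.5% in the reported fit. Under total counts 194 were lower and 71.4% of the calls were higher, and log2 fold changes of shared genes shifted by a median of 0.05. The sign turned for Asb2 (0.012) and Cblb (0.0336) under total counts. It also turned without Control replicate 2 for Fbxo21 (0.0715, range -0.22 to 0.07 over the libraries left out) and without Control replicate 2 for Asb2 (range -0.18 to 0.11). The cause of these shifts was not tested.

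Whether same-numbered libraries of the conditions share a culture is not given in the sources used here. The correlation of their deviations was 0.06 over genes, which cannot decide this, as each condition gives a single difference between replicates. A replicate block gave 537 genes higher and 529 lower, with log2 fold changes of 0.83 for Trim63 and 0.65 for Fbxo32 and no change in the members called. Under the block, Trim54 (adjusted p = 0.0444), Cul5 (0.0387), Rela (0.0241), Irs1 (0.00624), Myh1 (0.0459) and Ckm (0.0173) were among those also called, and Myl1 (0.0622) was not, all by edgeR. The genes Rela, Irs1, Myh1 and Ckm were named after their values were seen.

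Depth limits Klhl38, and 2 libraries per condition limit the precision of the other members.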
